A study of Mus musculus with 21 samples.

Results

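The Rab family of small GTPases, which mark and steer the membrane compartments of the cell, was followed in endothelial cells of mouse brain, lung and liver. Its members were all rows of the bulk RNA table with a symbol made of Rab, a number and an optional letter, and 58 of 24176 rows met this rule. The libraries came from C57BL/6J mice aged 2 to 4 months, with no genotype or treatment differing between the groups. Live CD31+/PDGFRβ−/CD45− cells were sorted from perfused brain, lung and liver after enzyme digestion, and only brain went through a myelin removal step. Bulk RNA sequencing covered 3 brain, 3 lung and 3 liver libraries, and 1 further library held single-cell transcriptomes of brain.

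Rab proteins switch between a GTP-bound form, which sits on a membrane and recruits effectors, and a GDP-bound form, which a carrier protein (GDI) keeps in the cytosol. Exchange factors switch a Rab on and GTPase-activating proteins switch it off. In endothelium these routes carry receptors through early and recycling endosomes, send cargo to lysosomes, and release Weibel-Palade bodies, the granules of von Willebrand factor whose docking involves Rab27a and Rab3 proteins. The brain barrier keeps vesicle traffic across its cells low, whereas the liver sinusoid is an active scavenging endothelium.

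Levels are counts out of every 1000000 counts of a library (CPM), which do not correct for transcript length, so genes are not compared with each other in the bulk data. The bulk libraries held 2992101 to 25690571 counts, the shallowest being lung replicate 2, and Rab transcripts took 0.229% to 0.324% of them. The labels call the libraries biological replicates without naming animals, so the p-values rest on how much these libraries differed. The 10 endothelial markers were detected in every tissue, with summed levels of 7524 to 8319 CPM in brain, 9736 to 13340 in lung and 5914 to 6143 in liver. Markers of other cells moved with tissue. The 6 lung epithelium markers summed to 298 to 1790 CPM in lung and were at 0 counts in brain. The 5 platelet markers reached 9.02 to 312 CPM in lung and 11.6 to 261 in liver against 0.377 to 1.47 in brain. Of 6 leukocyte markers measured, the sum was 47.5 to 60.7 CPM in lung, 0.279 to 7.86 in brain and 0.0778 to 5.14 in liver. The 5 choroid plexus markers summed to 153 CPM in brain replicate 2 and to 11.1 and 25.4 in the other brain libraries. The 6 hepatocyte markers summed to 268 to 670 CPM in liver, 46.1 to 961 in brain and 0.668 to 2.74 in lung. In brain 4 of the 6 were at 0 counts and nearly all of the sum was Ttr, a gene that choroid plexus also expresses, with its highest value in brain replicate 2. Their part in the Rab results was not tested, and a marker sum given beside a result is a description only. In bulk RNA, fewer cells with a transcript and less transcript per cell cannot be told apart.

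The promoters of 4 members are shown that differed from both other tissues in the tests described below. Rab3b was highest in liver, Rab27a and Rab31 lowest in brain, and Rab6a lowest in lung. Rab44, called higher in lung against both other tissues, is not shown. The Rab6a calls were lost in 7 of 18 alternative settings against brain and in 9 of 18 against liver. Each line gives the 250 bases before an annotated start, 5′ to 3′, from RefSeq on build GRCm38.p6, and Rab27a has a pair of starts. Capitals mark GATAA (GATA factors), CACGTG (an E-box), CCGGAA (the core bound by ETS factors, a family that includes endothelial regulators) and CTTTGA (TCF/LEF factors of Wnt signalling), each searched on both strands, so that TTATC is a GATAA match.

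Rab3b chr4:108878820-108879069 (plus strand): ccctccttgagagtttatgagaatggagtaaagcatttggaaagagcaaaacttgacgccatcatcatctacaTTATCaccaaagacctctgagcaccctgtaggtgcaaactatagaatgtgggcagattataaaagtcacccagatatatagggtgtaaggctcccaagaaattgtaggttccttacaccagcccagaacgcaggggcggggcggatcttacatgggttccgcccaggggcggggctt
Rab6a chr7:100607336-100607585 (plus strand): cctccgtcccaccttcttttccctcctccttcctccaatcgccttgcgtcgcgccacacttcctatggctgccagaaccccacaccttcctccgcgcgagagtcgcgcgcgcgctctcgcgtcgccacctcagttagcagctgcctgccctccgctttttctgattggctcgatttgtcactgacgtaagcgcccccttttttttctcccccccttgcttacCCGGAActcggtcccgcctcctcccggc
Rab27a chr9:73044560-73044809 (plus strand): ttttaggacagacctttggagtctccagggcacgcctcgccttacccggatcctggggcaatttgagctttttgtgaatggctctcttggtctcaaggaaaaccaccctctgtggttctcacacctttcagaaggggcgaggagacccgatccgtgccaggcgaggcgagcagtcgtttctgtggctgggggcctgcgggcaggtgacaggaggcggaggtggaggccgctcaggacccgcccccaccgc
Rab27a chr9:73063898-73064147 (plus strand): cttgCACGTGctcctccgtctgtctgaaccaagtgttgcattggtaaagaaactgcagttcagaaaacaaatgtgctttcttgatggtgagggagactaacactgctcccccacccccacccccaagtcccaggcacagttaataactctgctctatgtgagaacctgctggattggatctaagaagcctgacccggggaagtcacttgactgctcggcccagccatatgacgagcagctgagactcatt
Rab31 chr17:65772753-65773002 (minus strand): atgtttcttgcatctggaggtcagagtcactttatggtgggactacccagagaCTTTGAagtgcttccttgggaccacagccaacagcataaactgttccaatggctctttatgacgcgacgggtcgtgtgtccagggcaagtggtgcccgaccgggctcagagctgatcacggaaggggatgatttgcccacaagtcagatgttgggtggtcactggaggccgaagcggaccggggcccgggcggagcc

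The 5 windows differ in composition. The Rab6a window holds 24 CpG dinucleotides and a GC content of 62.8%, while the Rab3b window holds 6 and 48.8%. Of the Rab27a starts, the first has 14 CpG and no match to the 4 motifs, and the second has 5 CpG and an E-box. Over the family, 60 promoters of 48 members were in the sequence table, with a median of 15 CpG and 60.2% GC against 6 and 52.4% for all 32851 promoters. GATAA stood in 20.0% of Rab promoters against 22.6% of all, CACGTG in 8.33% against 6.02%, CCGGAA in 13.3% against 12.03%, and CTTTGA in 13.3% against 13.8%. A match describes these letters and is not a binding site.

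The Rab family as a whole took a similar part of the RNA in brain and lung and a somewhat larger part in liver. Summed over the 58 members, the level was 2293, 2413 and 2831 CPM in the brain libraries, 2296, 2523 and 2948 in lung, and 3122, 3124 and 3242 in liver, so that every liver library lay above every brain and lung library. Of the 58, 45 passed the filter on low counts and were tested with edgeR's quasi-likelihood test. Calls needed both a change of at least 2-fold and an adjusted p under 0.05, by the Benjamini-Hochberg method over the 13216 genes tested.

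Between brain and lung, 1 member was called higher in brain (Rab6a) and 4 lower (Rab27a, Rab27b, Rab31 and Rab44), 11.1% of the 45 against 12.3% of all genes tested. Against liver, brain had 1 higher (Rab4a) and 6 lower (Rab27a, Rab31, Rab3b, Rab5b, Rab5c and Rab8b), 15.6% against 16.2%. Lung against liver had 1 higher (Rab44) and 3 lower (Rab22a, Rab3b and Rab6a), 8.89% against 15.1%. The share of Rabs called was thus close to the background in both brain comparisons and below it between lung and liver. Split by direction, 7.25% of all genes were called lower and 5.05% higher in brain than in lung, and 8.72% lower and 7.45% higher in brain than in liver. Between lung and liver, 8.04% of all genes were called higher and 7.02% lower in lung. Libraries of the tissues did not overlap for 15 of 45 members between brain and lung (33.3%, background 33.8%), 11 between brain and liver (24.4%, background 33.2%) and 14 between lung and liver (31.1%, background 34.5%). By direction, 4 Rabs lay higher in brain than in lung without overlap (8.89%, background 15%) and 11 lower (24.4%, background 18.9%). Against liver, 3 lay higher in brain (6.67%, background 18.4%) and 8 lower (17.8%, background 14.8%). Lung had 7 higher than liver (15.6%, background 21%) and 7 lower (15.6%, background 13.5%).

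The comparisons share libraries, so their calls are given side by side. Called lower in brain against both other tissues were Rab27a and Rab31, where 3.31% of all genes met the same condition. Rab44 was called higher in lung against both (background 3.09%), Rab6a lower in lung against both (1.49%), and Rab3b higher in liver against both (3.71%). No member was called higher in brain against both tissues with edgeR, at an unadjusted p under 0.05 or with DESeq2 (background 2.41%). None was called lower in liver against both with edgeR, where Rab30 had an unadjusted p under 0.05 in both comparisons and was called by DESeq2 (background 3.59%).

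**Figure D1:**
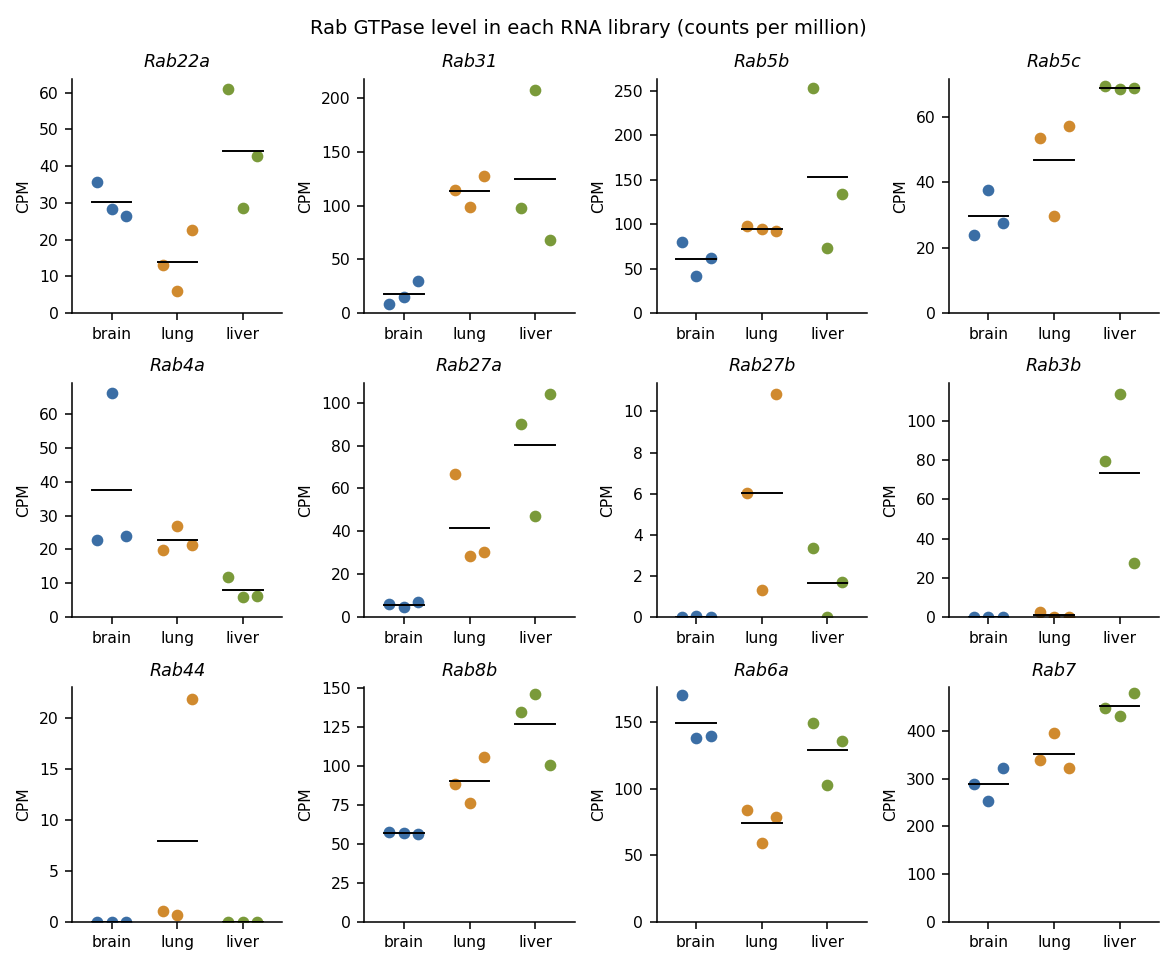
Level of each called Rab member, and of Rab7, in every bulk RNA library (CPM, linear axes from 0). Points are libraries, 3 per tissue, and short lines are means; Rab27a and Rab31 lie lowest in all 3 brain libraries, Rab3b is highest in all 3 liver libraries and Rab6a lowest in all 3 lung libraries.

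Among the early endosome members, Rab31 was lower in brain than in lung and liver. Rab31 belongs to the Rab5 subfamily and acts between the trans-Golgi network and early endosomes. Its level was 8.86, 15 and 29.6 CPM in brain, against 99.3, 115 and 128 in lung and 68.3, 98.1 and 208 in liver. Every brain library lay below every lung and liver library. The fitted log2 change was −2.59 (SE 0.57, edgeR adjusted p = 0.00809) against lung and −3.06 (SE 0.58, edgeR adjusted p = 0.00219) against liver, and the means were 6.39-fold and 7.02-fold higher in lung and liver than in brain. Both calls held in all 18 alternative settings, with log2 changes of −3.23 to −2.25 and −3.71 to −2.26.

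Of the Rab5 paralogs, which drive fusion of early endosomes, Rab5b and Rab5c were called lower in brain than in liver and Rab5a was not. Rab5b and Rab5c had close log2 changes, of −0.59 and −0.60 for brain over lung and −0.88 and −0.81 for lung over liver. Rab5b stood at 41.8, 61.6 and 79.9 CPM in brain, against 92.1, 94.9 and 97.9 in lung and 73.2, 135 and 253 in liver. Brain and liver libraries overlapped for Rab5b, and the log2 change of brain over liver was −1.46 (SE 0.40, edgeR adjusted p = 0.0215). Without liver replicate 1 it was −0.97 with an edgeR adjusted p of 0.139, without brain replicate 2 the edgeR adjusted p was 0.0854, and without brain replicate 3 it was 0.0552. Rab5c stood at 23.8, 27.5 and 37.5 CPM in brain, against 29.7, 53.6 and 57.3 in lung and 68.5, 68.9 and 69.4 in liver. All liver libraries lay above all others for Rab5c, and brain over liver gave −1.41 (SE 0.42, edgeR adjusted p = 0.0324). That call was lost on leaving out brain replicate 1 or 3, lung replicate 3 or any of the 3 liver libraries, with edgeR adjusted p between 0.0531 and 0.106. Under scaling by library size alone both calls were lost (edgeR adjusted p of 0.0512 for Rab5b and 0.0644 for Rab5c), a scaling that moved the median log2 change of all genes by 0.16. Rab5a was at 21.7, 39.1 and 44.2 CPM in brain, against 7.35, 24.1 and 39.2 in lung and 22.8, 35.2 and 45.0 in liver, and was not called in any comparison.

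Rab22a, which acts between early and recycling endosomes, was lowest in lung. It stood at 26.3, 28.3 and 35.8 CPM in brain, against 6.02, 13.2 and 22.7 in lung and 28.5, 42.7 and 61.0 in liver. No lung library reached the brain or liver range, and lung over liver was −1.87 (SE 0.55, edgeR adjusted p = 0.0347), while brain over lung was 1.16 (SE 0.54, edgeR adjusted p = 0.191). The call was lost without lung replicate 1 or 2 or without liver replicate 1 or 3 (edgeR adjusted p of 0.0629 to 0.117) and under scaling by library size alone (0.0718). Rab21, which carries integrins, was at 16.4 to 65.4 CPM over the 9 libraries and was not called. Over the 6 early endosome members, all tested, the median log2 change was −0.29 for brain over lung, −1.06 for brain over liver and −0.81 for lung over liver, beside medians of 0.00, 0.01 and 0.00 over all genes. All 6 log2 changes were below 0 in both comparisons with liver. Most of the family leaned the same way: of the 45 Rabs tested, 12 were above 0 for brain over liver and 13 for lung over liver. The medians of the 45 were −0.29 and −0.49. For Rab5a, brain over liver was −0.17 (SE 0.60) with mean CPM of 35.0 in brain and 34.3 in liver, so its direction is not settled. The CPM of the 6 summed to 211 ± 42.7 in brain, 331 ± 57.8 in lung and 468 ± 84.3 in liver (SD, n = 3 libraries each), and longer transcripts weigh more in such sums.

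Rab4a was the only recycling member called in any comparison by edgeR. Rab4a, which serves fast return from early endosomes to the surface, was at 22.9, 24.1 and 66.1 CPM in brain, against 19.7, 21.4 and 27.1 in lung and 6.07, 6.38 and 11.8 in liver. Liver lay below every other library, and brain over liver was 2.05 (SE 0.61, edgeR adjusted p = 0.0332). The high brain value came from brain replicate 2, the library with 153 CPM of choroid plexus markers; without it the log2 change was 1.37 and the edgeR adjusted p 0.205. Leaving out lung replicate 1 or 3, or liver replicate 2 or 3, also ended the call (edgeR adjusted p of 0.0526 to 0.109).

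The main recycling Rabs showed no called difference. Rab11b, with Rab11a the GTPase of the slow recycling endosome, was the recycling member with the highest mean CPM, at 201, 233 and 244 CPM in brain, against 220, 220 and 358 in lung and 155, 182 and 268 in liver. Ranges overlapped for all 3 tissues. Rab11a was at 98.9, 126 and 171 CPM in brain, against 26.4, 80.0 and 128 in lung and 66.4, 97.9 and 131 in liver. Rab14, which works between Golgi and endosomes, was at 113 to 138 CPM in brain, 59.8 to 105 in lung and 101 to 166 in liver, with no overlap between brain and lung, and a log2 change of 0.58 (SE 0.32, edgeR adjusted p = 0.285) that was not called. Rab12, Rab35 and Rab4b were not called either. The 7 recycling members tested of 11 gave medians of 0.07, −0.03 and −0.30, and summed to 627 ± 35.6 CPM in brain, 575 ± 139 in lung and 550 ± 54.7 in liver (SD, n = 3 each).

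**Figure D2:**
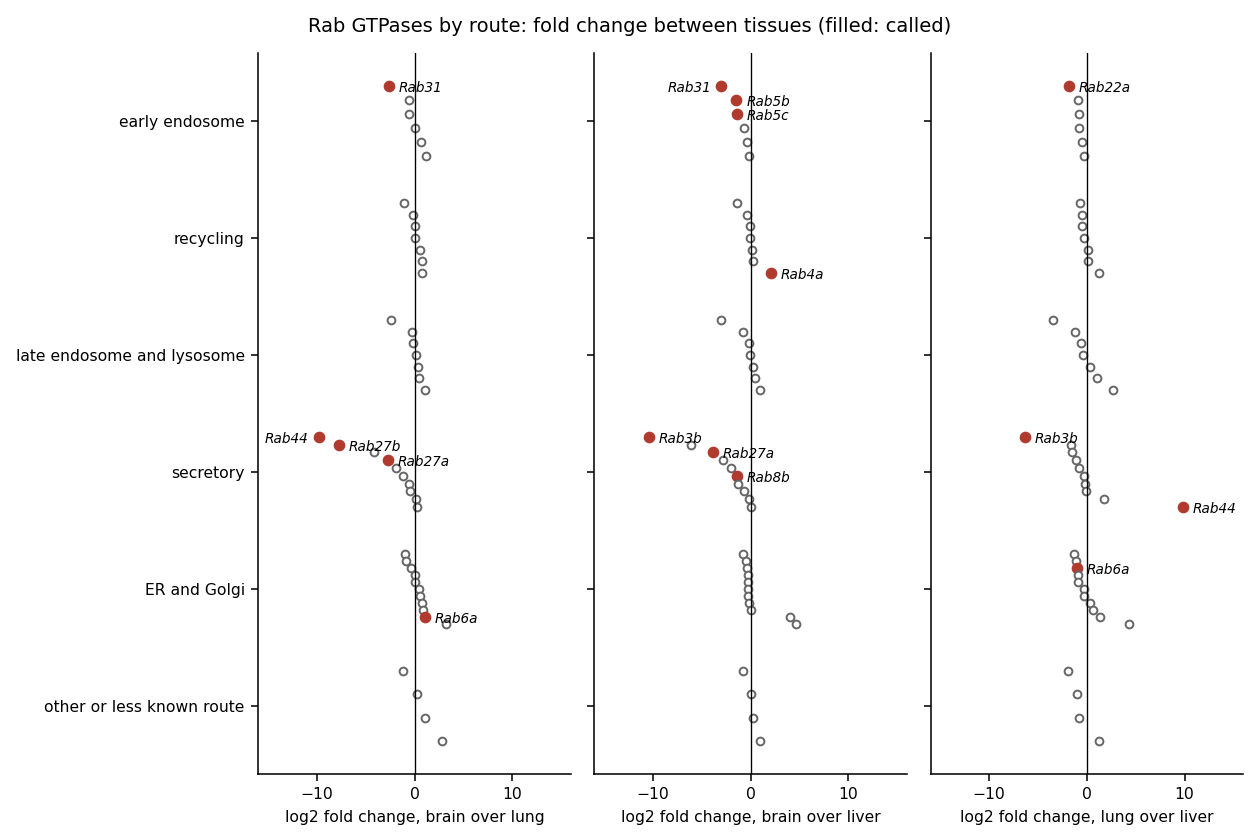
Log2 fold change (edgeR) of the 45 tested Rab members in each of the 3 tissue comparisons, by route. Each point is a member and filled red points are called; the called members are named in the text, and Rab27a and Rab31 lie to the left, lower in brain, in both brain comparisons.

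Late endosome and lysosome members passed no call in any of the 3 comparisons, with 0 of 7 tested called by edgeR. An unadjusted p under 0.05, with no limit on the fold change, was reached by 0, 1 and 2 of them for brain over lung, brain over liver and lung over liver, and DESeq2 called 0, 1 and 1 of the 7. In the same order, DESeq2 called 1002, 1442 and 1633 of the 13216 genes up and 1525, 1553 and 1260 down. DESeq2 also called Rab38, a member of this group below edgeR's count filter, as higher in lung against both tissues. Rab7, the GTPase that brings late endosomes to lysosomes, was the member with the highest mean CPM in this group. Rab7 was at 253, 289 and 322 CPM in brain, against 323, 340 and 396 in lung and 432, 448 and 481 in liver. No tissues overlapped and their order was brain, lung, liver, although the highest brain library (322) and the lowest lung library (323) almost met. Brain over liver was −0.84 (SE 0.23, edgeR adjusted p = 0.0225), which passed the p threshold, as 16.6% of all genes did, but not the 2-fold one. Brain over lung was −0.24 (SE 0.23, edgeR adjusted p = 0.570), and lung over liver −0.60 (SE 0.23, edgeR adjusted p = 0.0978). Rab9, which returns receptors from late endosomes to the Golgi, was at 10.7 to 36.0 CPM over all libraries, and the tissues overlapped. Rab24, linked to autophagy, was at 20.0 to 36.5 CPM in brain, 17.7 to 50.2 in lung and 5.14 to 19.0 in liver, and was not called. The median log2 changes of the 7 were 0.11, −0.09 and −0.41.

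Secretory members held the largest fitted changes of the family, and 3 of the 10 tested (30%) were called lower in brain in each brain comparison. Of all genes, 7.25% were called lower in brain than in lung and 8.72% lower than in liver. Rab27b and Rab44 against lung, and Rab3b against liver, had 1, 0 and 3 counts in brain and passed the count filter through other tissues. Such members could only be lower in brain, so these counts of calls are no evidence about the route. Rab27a, which docks secretory granules and, in endothelium, Weibel-Palade bodies, was at 4.63, 6.16 and 7.02 CPM in brain, against 28.4, 30.3 and 66.7 in lung and 47.1, 90.1 and 104 in liver. Every brain library lay below every lung and liver library. The log2 change was −2.76 (SE 0.50, edgeR adjusted p = 0.00232) for brain over lung and −3.89 (SE 0.52, edgeR adjusted p = 0.000146) for brain over liver, and means were 7.04-fold and 13.5-fold higher in lung and liver. Lung and liver libraries overlapped, with −1.14 (SE 0.47, edgeR adjusted p = 0.127). Both brain calls held in all 18 alternatives, with edgeR adjusted p of at most 0.0136 and 0.00129.

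Rab3b, a GTPase of regulated exocytosis, was a liver transcript in these libraries. It was at 27.6, 79.3 and 113 CPM in liver, 0, 0 and 2.83 in lung, and 0, 0 and 0.167 in brain. Brain libraries held 3 counts in all. The fitted log2 changes were −10.46 (SE 1.62, edgeR adjusted p = 0.00053) for brain over liver and −6.36 (SE 1.31, edgeR adjusted p = 0.00534) for lung over liver; at such counts the fitted size depends on the prior count. The brain and liver call held in all 18 alternatives. The lung and liver call was lost when lung replicate 2 and liver replicate 2 were both left out (log2 change −5.35, edgeR adjusted p = 0.0560).

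The other Rab3 paralogs did not follow Rab3b. Rab3d stood at 11.4 to 20.5 CPM in brain, 7.51 to 45.5 in lung and 15.7 to 33.6 in liver. Rab3a stood at 1.74 to 5.97 in brain, 9.90 to 15.04 in lung and 2.16 to 26.5 in liver. Neither was called in any comparison, and Rab3c had counts only in lung replicate 1.

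Rab8b, which carries cargo from the Golgi to the surface, rose in liver over brain. It was at 56.0, 56.7 and 57.6 CPM in brain, against 76.2, 88.5 and 106 in lung and 100, 134 and 146 in liver. Brain lay below every other library, and brain over liver was −1.38 (SE 0.34, edgeR adjusted p = 0.0119), a call that held in all 18 alternatives with edgeR adjusted p of at most 0.0472. Brain over lung was −0.61 (SE 0.33, edgeR adjusted p = 0.273). Rab8a stood at 17.3, 25.6 and 34.9 CPM in brain, against 20.7, 22.8 and 25.8 in lung and 35.0, 41.2 and 81.1 in liver, and was not called. Rab10, the secretory member with the highest mean CPM, which also works between Golgi and surface, was not called, at 84.8 to 148 CPM in brain, 85.9 to 152 in lung and 104 to 136 in liver. Rab13, which acts in traffic to tight junctions, was at 3.12, 4.34 and 14.2 CPM in brain, against 4.62, 4.69 and 39.4 in lung and 26.8, 27.3 and 67.9 in liver; brain over liver was −2.79 (SE 0.95, edgeR adjusted p = 0.0627).

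A pair of secretory calls rested on few counts and appeared with markers of blood cells. Rab27b, known for granule release in platelets, was at 1.34, 6.01 and 10.8 CPM in lung, 0, 1.71 and 3.35 in liver, and 0, 0 and 0.0557 in brain, where it had 1 count in all. In lung and in liver, the libraries ranked the same way for Rab27b as for the platelet marker sum, which was 9.02, 95.1 and 312 CPM in lung and 11.6, 87.4 and 261 in liver. Brain over lung was −7.78 (SE 2.24, edgeR adjusted p = 0.0360), and the call was lost on leaving out any 1 of the brain or lung libraries (edgeR adjusted p of 0.0532 to 0.118). Rab44, known from leukocyte granules, was at 0.668, 1.06 and 21.9 CPM in lung and at 0 counts in all brain and liver libraries. In the same order, these lung libraries held 47.5, 60.7 and 53.1 CPM of leukocyte markers and 9.02, 95.1 and 312 CPM of platelet markers. Its mean was at least 146-fold higher in lung than in brain and at least 178-fold higher than in liver, against a floor of 3 counts over each group, with edgeR adjusted p of 0.0341 and 0.0297. Its level rested on lung replicate 3; without lung replicate 1 or 3 it failed the count filter and no value was computed. Without any 1 brain library the edgeR adjusted p of brain over lung was 0.0834 to 0.0842, and without lung replicate 2 it was 0.0524. Without any 1 liver library that of lung over liver was 0.0604 to 0.0678. The part of blood cells in these values was not tested.

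Over the 10 secretory members tested of 13, the median log2 change was −1.54 for brain over lung, −1.72 for brain over liver and −0.56 for lung over liver. These medians describe the tested members only, since Rab44, Rab27b and Rab3b passed the count filter through their lung or liver libraries. The 13 members summed to 239 ± 22.5 CPM in brain, 341 ± 32.1 in lung and 534 ± 99.8 in liver (SD, n = 3 each), and the 3 tissues did not overlap.

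Of the 11 ER and Golgi members tested, edgeR called Rab6a alone. Rab1, the GTPase of transport from ER to Golgi, had the highest mean CPM of this group, at 204, 302 and 314 CPM in brain, against 219, 270 and 319 in lung and 256, 293 and 302 in liver, and the tissues overlapped. Rab2a, which acts in retrieval to the ER, was at 220 to 360 CPM in brain, 116 to 228 in lung and 230 to 314 in liver, and lung over liver was −0.93 (SE 0.30, edgeR adjusted p = 0.0507), short of the threshold. Rab6a, which directs vesicles within and out of the Golgi, was at 138, 139 and 170 CPM in brain, against 59.2, 79.0 and 84.2 in lung and 102, 136 and 149 in liver. Lung lay below every other library, with log2 changes of 1.06 (SE 0.29, edgeR adjusted p = 0.0254) for brain over lung and −1.03 (SE 0.28, edgeR adjusted p = 0.0264) for lung over liver. Both lie near the 2-fold limit. The first was lost on leaving out any 1 of the 6 brain and lung libraries, with log2 changes of 0.95 to 1.15 and edgeR adjusted p of 0.0508 to 0.0889. The second was lost without any lung library or without liver replicate 1 or 3 (edgeR adjusted p of 0.0510 to 0.0871) and fell short of 2-fold with DESeq2 (−0.97), with RLE size factors (−0.97) and with scaling by library size alone (−0.80), which moved the median of all genes by 0.21. It held when Rn45s and Malat1 were left out of the scaling (−1.05).

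Rab19, a little studied Golgi Rab, was detected mainly in brain but did not pass the test. It was at 3.67, 5.47 and 11.7 CPM in brain, against 0.433, 0.531 and 1.34 in lung and 0, 0.108 and 0.685 in liver. Brain lay above all other libraries, with log2 changes of 3.25 (SE 1.59, edgeR adjusted p = 0.216) and 4.60 (SE 1.65, edgeR adjusted p = 0.0764). Rab18, of ER and lipid droplets, Rab33b, a Golgi and autophagy GTPase, and Rab1b, Rab2b and Rab43 were not called in any comparison. The 11 ER and Golgi members tested of 15 gave medians of 0.49, −0.25 and −0.32. In the remaining group, Rab23, which represses Hedgehog signalling at the cilium and had the highest mean CPM, was at 20.3 to 50 CPM in brain, 7.02 to 23.7 in lung and 19.7 to 35.2 in liver; Rab28, Rab40b and Rab40c were tested too, and none of the 4 was called by edgeR or reached an unadjusted p under 0.05, while DESeq2 called Rab40c in both lung comparisons.

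The 13 members below the count filter were Rab15, Rab17, Rab20, Rab25, Rab26, Rab33a, Rab36, Rab37, Rab38, Rab39, Rab39b, Rab3c and Rab42. Rab15 and Rab17 had 0 counts in all 9 libraries; Rab17 is known for transcytosis in epithelium. Rab25, the epithelial relative of Rab11, was seen in lung replicate 1 alone, at 2.21 CPM, as were Rab26 at 0.177 CPM and Rab3c at 2.12 CPM. Rab38, of lysosome-related organelles, was at 12.2, 0 and 0.866 CPM in lung replicates 1, 2 and 3 and at 0 counts elsewhere. Rab33a and Rab20 had 0 counts in liver and Rab39b too, while Rab39 had 0 in lung. A group at 0 counts does not show absence: 3 counts over a group correspond to 0.0539 CPM in brain, 0.141 in lung and 0.0444 in liver.

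**Figure D3:**
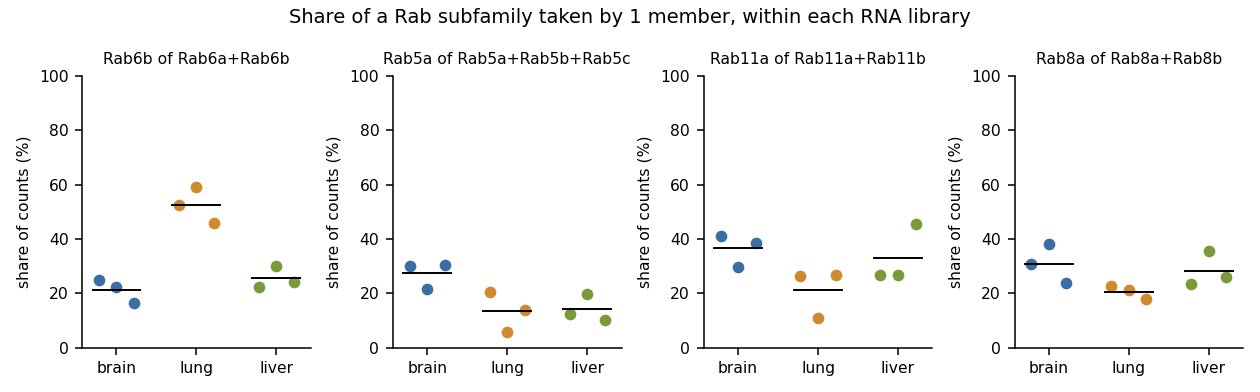
Share of a Rab subfamily's counts taken by 1 paralog in each bulk RNA library (percent, axes from 0 to 100). Points are libraries and short lines are means; Rab6b takes 46.0% to 59.1% of Rab6a and Rab6b counts in lung and 16.5% to 30.1% in brain and liver.

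Within some subfamilies, the shares of paralogs did not overlap between tissues. Such shares are ratios within a library and do not depend on its scaling, although reads shared between near-identical paralogs could be split by the counting. Rab6b, the Rab6 paralog known from neurons, made up 46.0%, 52.4% and 59.1% of Rab6a and Rab6b counts in lung, 16.5%, 22.3% and 24.9% in brain, and 22.5%, 24.2% and 30.1% in liver. No lung library overlapped with the others, and Rab6b itself stood at 67.3 to 92.7 CPM in lung against 27.5 to 56.6 in brain and 43.3 to 44.1 in liver. The 7 neuron markers summed to 88.2 to 112 CPM in lung, 28.8 to 58.5 in brain and 12.7 to 20.2 in liver. Stmn2 stands both on this list and among the arterial endothelium markers, so the sum is not specific to neurons. The arterial markers summed to 1033 to 1254 CPM in lung, 333 to 546 in brain and 73.1 to 136 in liver. The part of either list in the share was not tested. The shares of lung and brain and of lung and liver each gave p = 0.1 in a two-sided exact permutation test over libraries (n = 3 each), the smallest p that this design allows. Rab5a made up 21.5%, 29.9% and 30.5% of the Rab5 counts in brain, against 5.57%, 13.9% and 20.5% in lung and 10.1%, 12.2% and 19.9% in liver, so that brain lay above every other library. Rab11a made up 29.8% to 41.2% of Rab11a and Rab11b counts in brain, 10.7% to 26.7% in lung and 26.7% to 45.7% in liver. Lung was lowest, although its highest library (26.67%) and the lowest liver library (26.72%) almost met. The value of 10.7% came from lung replicate 2, the shallowest library. Rab4a made up 58.7% to 87.4% of Rab4a and Rab4b counts in brain, 35.8% to 65.4% in lung and 10.0% to 52.4% in liver, with no overlap between brain and liver. Rab8a made up 23.7% to 38.1% of Rab8a and Rab8b counts in brain, 17.7% to 22.6% in lung and 23.5% to 35.7% in liver. For Rab2b, Rab5b and Rab5c the shares overlapped in every tissue pair, with exact permutation p of 0.3 to 1.0. Each of the separations above also gave the smallest possible exact permutation p, and 8 paralogs were compared in this way over 3 tissue pairs, so none would pass an adjustment.

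Genes that regulate or bind Rabs were called at shares near those of all genes. Of 133 exchange factors, GTPase-activating proteins, effectors and GDI or prenylation genes, 128 were tested. Brain had 12 higher and 8 lower than lung (15.6%, background 12.3%) and 14 higher and 10 lower than liver (18.8%, background 16.2%). Lung had 9 higher and 13 lower than liver (17.2%, background 15.1%). The median log2 change of the 128 was 0.22 for brain over lung, 0.05 for brain over liver and −0.06 for lung over liver. By kind, brain over lung called 5 effectors higher and 3 lower of 48 (16.7%) and 6 GTPase-activating proteins higher and 2 lower of 34 (23.5%). Of 39 exchange factors, 1 was higher and 3 lower (10.3%), beside 12.3% of all genes. None of the 7 GDI and prenylation genes, which serve all Rabs, was called between brain and another tissue by edgeR, and 0 were called by DESeq2. An unadjusted p under 0.05 was reached by 0 against lung and 1 against liver. Gdi2 was called lower in lung than in liver (log2 change −1.09).

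Some effectors of Rab11 were called higher in brain although Rab11a and Rab11b were not. Rab11fip3 and Rab11fip4, also on the effector list, were not called higher in brain against both tissues. Rab11fip1, which links Rab11 to recycling endosomes, was at 268, 330 and 336 CPM in brain, against 0.866, 3.34 and 5.66 in lung and 0.216, 0.257 and 4.13 in liver. Its mean was 94.6-fold higher in brain than in lung and 203-fold higher than in liver, with log2 changes of 6.58 (SE 1.23, edgeR adjusted p = 0.00598) and 7.26 (SE 1.26, edgeR adjusted p = 0.0027). Rab11fip2 and Rab11fip5, of the same effector family and picked after their values were seen, were called higher in brain against both tissues as well. Rab11fip2 was at 66.3, 71.2 and 176 CPM in brain, against 10.0, 16.2 and 24.2 in lung and 4.75, 19.4 and 44.3 in liver. Rab11fip5 was at 76.9, 81.1 and 87.6 CPM in brain, against 7.35, 10.1 and 12.7 in lung and 0.156, 1.84 and 5.56 in liver. No brain library overlapped with another tissue for Rab11fip1, Rab11fip2 or Rab11fip5.

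Some effectors and regulators of other routes were also called higher in brain against both tissues. In all, 7 of the 128 tested met this condition, beside 2.41% of all genes. Another 3 (Rin2, Tbc1d9b and Lrrk2) were called lower in brain against both, beside 3.31% of all genes. Osbpl1a, a cholesterol-sensing partner of Rab7 on late endosomes, was at 97.8, 105 and 170 CPM in brain, against 1.34, 5.49 and 8.93 in lung and 9.03, 14.7 and 14.8 in liver. Brain over lung was 4.56 (SE 0.64, edgeR adjusted p = 0.000296) and brain over liver 3.05 (SE 0.59, edgeR adjusted p = 0.00252). Tbc1d4, a GTPase-activating protein for Rab10 and its relatives known from insulin-regulated glucose transporter traffic, was at 176, 204 and 244 CPM in brain, against 12.4, 18.8 and 26.6 in lung and 50.8, 68.6 and 69.9 in liver. No tissues overlapped, with 3.49 (SE 0.38, edgeR adjusted p = 3.52e-05), 1.56 (SE 0.35, edgeR adjusted p = 0.00706) and −1.93 (SE 0.36, edgeR adjusted p = 0.00236) for brain over lung, brain over liver and lung over liver. Rab10 itself was not called in any comparison.

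Partners of the Rab27 and Rab3 proteins were split between tissues. Myrip, which links Rab27a to myosin, was at 70.9, 74.98 and 120 CPM in brain, against 35.4, 62.8 and 99.6 in lung and 0, 0.433 and 3.21 in liver, where Rab27a was highest on average. The log2 change was 6.13 (SE 1.15, edgeR adjusted p = 0.00267) for brain over liver and 5.64 (SE 1.13, edgeR adjusted p = 0.00502) for lung over liver. Sytl1, a Rab27 effector of granule release, was at 13.7, 22.7 and 27.3 CPM in lung, 1.56, 1.73 and 2.33 in brain, and 0, 0 and 0.0389 in liver, and its call between brain and lung was lost without any 1 of their libraries (edgeR adjusted p of 0.0545 to 0.137). Rab3il1, an exchange factor for Rab8 that also binds Rab3a, was at 30.7, 32.1 and 40.2 CPM in liver, 0.433, 0.973 and 1.34 in lung, and 0, 1.38 and 1.42 in brain, and was picked after its values were seen. Dennd2a, an exchange factor reported for Rab9, was at 23.9, 36.4 and 42.3 CPM in liver, 0, 0 and 2.30 in lung, and 0, 0.0557 and 0.275 in brain. Without lung replicate 2 its edgeR adjusted p for lung over liver was 0.0525.

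A pair of further GTPase-activating proteins rested on few counts. Tbc1d2, which acts on Rab7, was at 5.18, 6.75 and 11.8 CPM in brain, against 0.334, 3.90 and 5.31 in lung and 0, 0 and 0.162 in liver. Its lung and liver call (edgeR adjusted p = 0.0389) was lost on leaving out any 1 brain library, lung replicate 1 or 3, or liver replicate 2 or 3 (edgeR adjusted p of 0.0526 to 0.105). Tbc1d10c, known from lymphocytes, was at 2.03, 3.47 and 10.7 CPM in lung, at 0 counts in brain, and at 0, 0 and 0.171 in liver. Its mean was at least 100.1-fold higher in lung than in brain, against a floor of 3 counts over the brain libraries. Leukocyte markers were also highest in lung, and any 1 brain or lung library left out ended the call (edgeR adjusted p of 0.0513 to 0.0999).

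**Figure D4:**
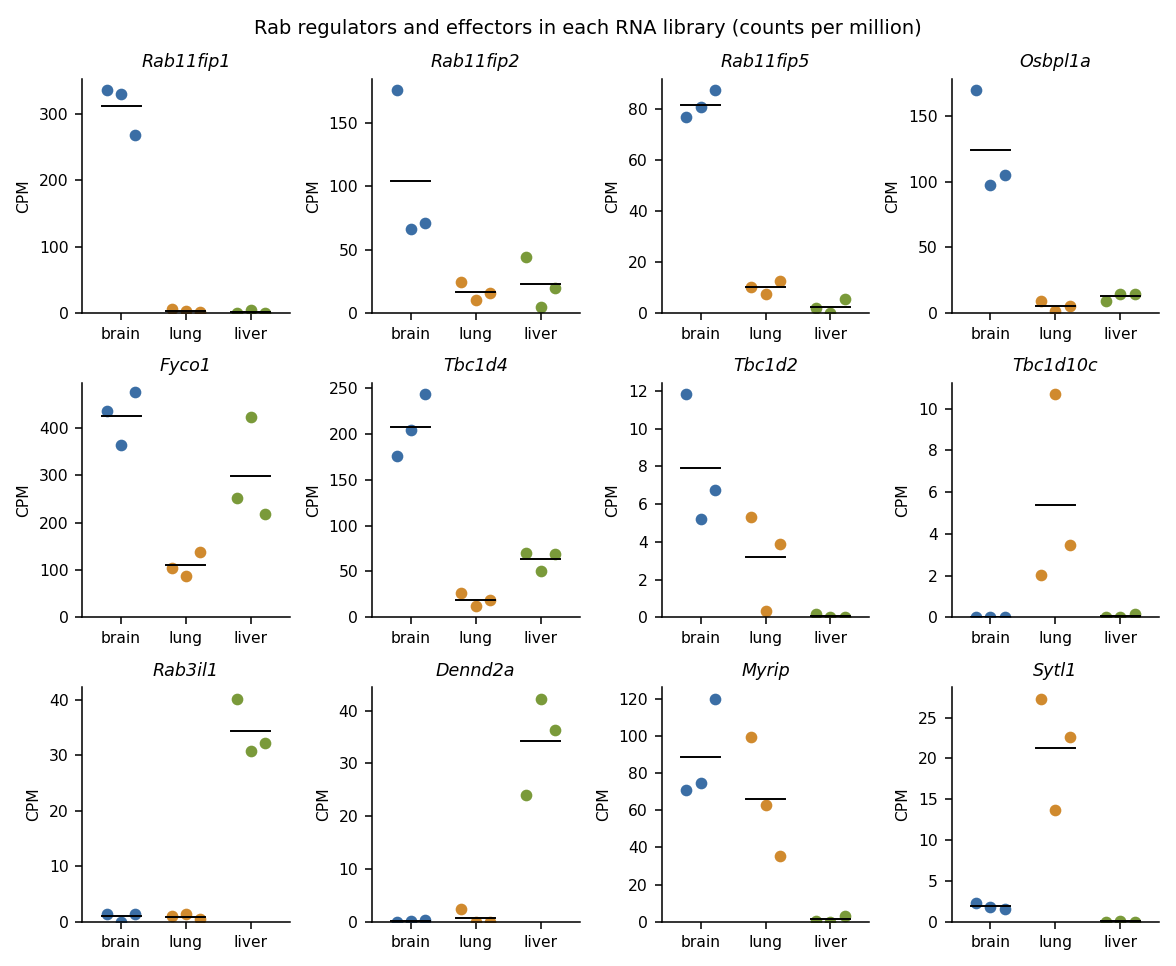
Level of 12 regulators and effectors of Rabs in every bulk RNA library (CPM, linear axes from 0). Points are libraries and short lines are means; Rab11fip1, Rab11fip2, Rab11fip5, Osbpl1a and Tbc1d4 lie highest in all 3 brain libraries, Rab3il1 and Dennd2a in all 3 liver libraries.

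The single-cell library of brain held 9405 barcodes with a median of 4393 UMIs. With 1 library there is no test, and intervals cover counting error only. Clustering without the Rab genes gave 11 clusters, of which 7, with 7665 barcodes (81.5%, median 4896 UMIs), were endothelial-like by their markers. The others were an erythroid-like cluster of 261 barcodes, a mural-like one of 57, and a pair of clusters of low UMI count with 952 and 470 barcodes that stay unnamed. Doublets were not called. Of the 58 bulk members, all were found in the table, Rab1 under its current symbol Rab1a.

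Rab transcripts were present in nearly every endothelial-like barcode. They took 3099.8 of every 1000000 UMIs there (CPM on the UMI scale), with a median of 15 Rab UMIs per barcode, and 99.8% of barcodes had at least 1. Here a UMI counts 1 captured molecule, so levels are set side by side, although capture may differ between genes. Rab14 led with 284 CPM (95% Poisson interval 279 to 289), followed by Rab2a at 259 (254 to 264) and Rab11a at 250.45 (246 to 255), whose intervals overlap. Next came Rab18 at 198, Rab1a at 184, Rab6a at 166 and Rab7 at 164, the last pair with overlapping intervals. Thus recycling Rabs took 2 of the 3 leading places. A UMI of Rab14 was seen in 70.8% of endothelial-like barcodes and in 14.2% of erythroid-like ones, whose median was 7851 UMIs but 298 outside the erythroid markers.

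Members with at most 3 counts in bulk brain had 0 to 7 UMIs here, except Rab26. Rab26, known from secretory granules, had 0 counts in bulk brain but 78 UMIs in endothelial-like barcodes, or 1.90 CPM (1.5 to 2.37), in 1.02% of them and in 0% of erythroid-like ones. No UMI of Rab17, Rab37, Rab38 or Rab44 was seen in endothelial-like barcodes, which allows a share of up to 0.0391% of barcodes with a UMI and sets no limit on the cells that express the gene. Rab3b had 7 UMIs and Rab27b 4. Rab27a had 146 UMIs, or 3.55 CPM (3.00 to 4.18), in 1.68% of barcodes, against 0.383% of erythroid-like ones. For Rab42 the share of 0.626% lay below the 1.15% of erythroid-like barcodes. The erythroid-like shares rest on 261 barcodes. Their intervals reached from 0.238% to 3.32% for Rab42, up to 1.40% for Rab26 and up to 2.12% for Rab27a. Each interval includes the endothelial-like share of the same gene, so these shares cannot separate the gene from background. Across the 58 members, mean brain CPM in bulk and CPM in endothelial-like barcodes had a Spearman correlation of 0.912, a description over genes that are not independent and that differ in transcript length.

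**Figure D5:**
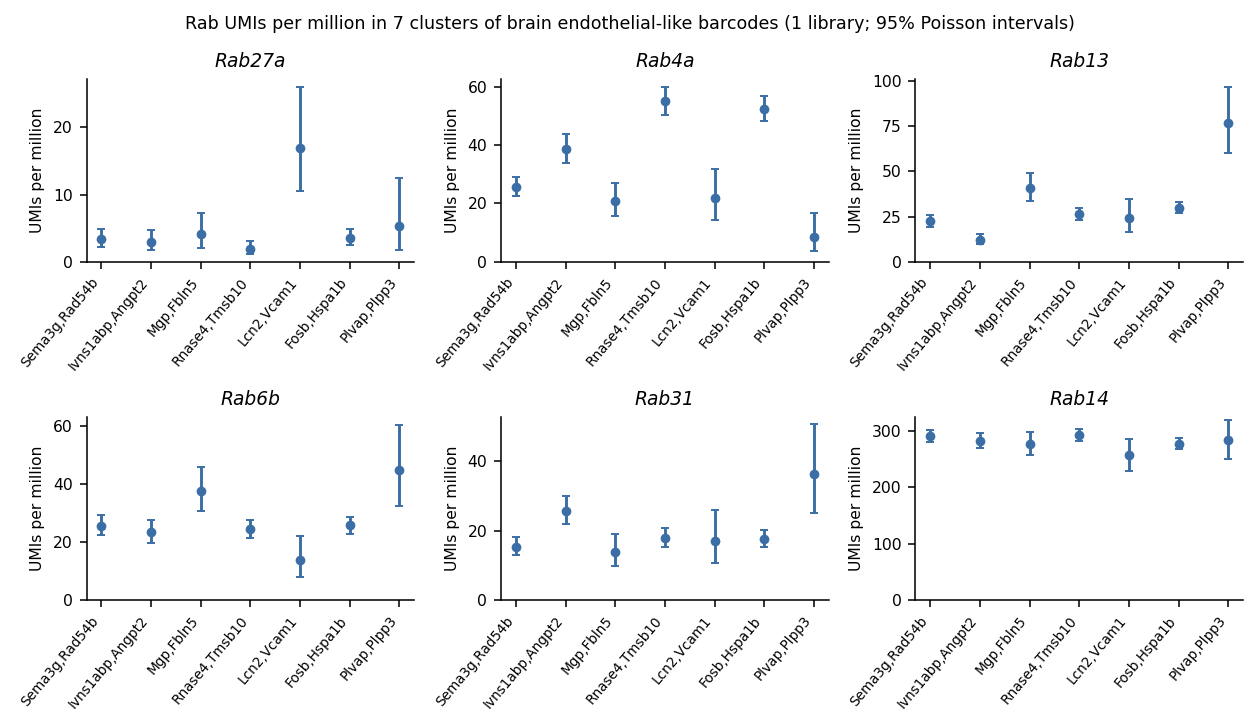
Level (CPM, UMIs out of every 1000000) of 6 Rab members in the 7 endothelial-like clusters of the single-cell brain library, each cluster named by its first 2 leading genes. Points are cluster sums and bars are 95% Poisson intervals for counting error; Rab27a is highest in the Lcn2 and Vcam1 cluster, Rab13 in the Plvap and Plpp3 cluster, and Rab14 varies little.

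Rab levels varied between the endothelial-like clusters for a few members, chosen after their values were seen. Cells from 1 library share their source, so these are descriptions. The cluster led by Lcn2 and Vcam1 holds 3 venous markers among its 10 leading genes and numbers 219 barcodes. Rab27a was at 17.0 CPM there (10.5 to 26.0, from 21 UMIs) and at 1.98 to 5.34 in the other 6 clusters. Rab4a was highest in the cluster led by Rnase4 and Tmsb10, at 55.0 (50.4 to 59.9), and in that led by the stress genes Fosb and Hspa1b, at 52.4 (48.3 to 56.7). It was lowest, at 8.54 (3.69 to 16.8, from 8 UMIs), in the cluster led by Plvap and Plpp3.

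That Plvap cluster, of 170 barcodes, holds 4 markers of fenestrated endothelium among its 10 leading genes and also 10943 CPM of erythroid markers. Rab13 reached 76.8 CPM there (60.1 to 96.8), against 12.2 to 40.8 elsewhere, and Rab31 reached 36.3 (25.1 to 50.7), against 13.7 to 25.6. Rab6b reached 44.8 (32.3 to 60.6) there and 37.8 (30.8 to 45.9) in the cluster led by Mgp and Fbln5, against 13.8 to 25.8 in the other 5. Rab14 ranged from 256 to 292 over all 7 clusters.

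A few regulators, picked after their values were seen, also varied between these clusters, and these genes were free to enter the clustering. Others that were called between brain and liver in bulk varied less, such as Rab11fip2, at 23.5 to 37.6 CPM over the 7 clusters. Rab11fip1 was at 231 CPM (219 to 244) in the cluster led by Ivns1abp and Angpt2, at 30.7 (24.5 to 38.1) in the Mgp cluster and at 13.9 (7.39 to 23.7) in the Plvap cluster. Tbc1d4 was at 464 (447 to 482), 80.0 (69.7 to 91.4) and 33.1 (22.5 to 47.0) in the same clusters. Rab3il1, high in bulk liver, was at 23.5 (14.7 to 35.5, from 22 UMIs) in the Plvap cluster and at 0.337 to 2.43 in the other 6. Tbc1d2b, a GTPase-activating protein called higher in liver against both other tissues, was at 65.1 (49.8 to 83.6) in the Plvap cluster and at 2.22 to 21.8 elsewhere. The other regulators called higher in liver against both tissues did not stand apart there. Dennd2c was at 21.3 (13.0 to 33.0) in the Plvap cluster and 18.4 (15.1 to 22.1) in the Ivns1abp cluster. Appl2 was at 19.2 (11.4 to 30.4) and 36.9 (32.2 to 42.1) in the same clusters. Dennd2a had 1 UMI in the Plvap cluster. Rab3b, the Rab called higher in liver against both tissues, had 0 UMIs in the Plvap cluster.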

How the data were processed

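The RNA values were deposited by the authors as raw counts per gene symbol, and the single-cell values as deposited UMI counts per gene and barcode. The submitters' processing notes name HTSeq 0.6.1, Cell Ranger 1.2.0, TopHat and Bowtie2, SAMtools 1.10.2 and Picard, and builds mm9 and mm10, but tie none to an assay. Whether counting used strand and how barcodes were filtered are not given in the sources used here. Reads of near-identical paralogs are uncertain. Samples were grouped by the tissue in the labels. The ATAC libraries of the series were not analysed here.

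Tests used edgeR 4.0.16 in R 4.3.3 on the counts of all 9 bulk libraries: filterByExpr, TMM, a robust quasi-likelihood fit of 1 mean for each tissue, and Benjamini-Hochberg adjustment over 13216 genes. The fit was tested on simulated data. A fit with 3 libraries per tissue had 6 residual degrees of freedom and a common biological coefficient of variation of 0.766, which limits the precision. CPM uses the library total; log2 changes use TMM. Shares within subfamilies were compared with two-sided exact permutation tests. DESeq2 1.42.0, other scalings, no count filter, the adjusted p alone, fits of 2 tissues, a replicate block and leaving out libraries were alternatives. The adjusted p alone used the main fit without the fold limit, so no call could be lost there.

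Single cells were clustered with scanpy 1.11.5 without Rab and mitochondrial genes (2000 variable genes, 30 components, 15 neighbours, Leiden resolution 0.6). A cluster was endothelial-like when its endothelial markers summed to over 8500 CPM, a limit chosen after seeing the clusters, no marker of another cell led it and its median UMI count was at least the library's divided by 3. Intervals at 95% and floors of 3 counts cover counting error only. Promoter sequences are from RefSeq, GRCm38.p6, to which all 58 members matched.

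The members and gene lists were chosen with earlier results of these data known. The rule for members named with values took those called, those with the highest mean CPM of a route and those at 0 counts in a tissue; of the regulators, the 4 called genes with the largest change per comparison. Other members and regulators given with values, such as Rab5a, Rab14, Rab19 and Tbc1d2b, were chosen after their values were seen.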

Additional observations from a re-analysis of the deposited data

How the results depend on the processing

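No named result changed sign among called values, and of 16 Rab calls 6 held in every alternative (Rab27a and Rab31 in both brain comparisons, Rab3b and Rab8b in brain over liver). DESeq2 called 12 Rabs between brain and liver (3 higher) and 7 between lung and liver (3 higher). The 7 include Rab38, a gene below edgeR's count filter. Over all genes DESeq2 also called more: 1442 up and 1553 down for brain over liver, where edgeR called 985 and 1152. For lung over liver DESeq2 called 1633 up and 1260 down, where edgeR called 1063 and 928. The larger Rab counts thus came with larger counts over all genes. Against both other tissues DESeq2 called 2 higher and 0 lower in lung, and 2 higher and 1 lower in liver. RLE size factors and scaling by library size alone each left 0 Rabs lower in lung against both tissues, and the latter called 2 between lung and liver (1 lower in lung). With no count filter 2 Rabs were higher in lung than in liver and 2 higher in lung against both. Fits of only the 2 tissues compared gave 0 higher in brain over liver, 2 called between lung and liver with 0 higher, and 0 higher against both tissues in lung and in liver. Same-numbered libraries did not deviate together (correlations of −0.00325 to 0.0779). With 3 libraries per tissue, library noise could hide a shared animal, so whether the numbers pair the samples stays unknown. With the replicate block, 3 Rabs were called between brain and lung (2 lower), 0 were higher in brain over liver or in lung over liver, 0 were higher in lung and 2 higher in liver against both tissues, and 5 regulators were lower in brain than in lung.

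Leaving out each library in turn gave 2 to 5 Rabs called between brain and lung (0 to 1 higher, 2 to 4 lower), 5 to 8 between brain and liver (0 to 1 higher, 4 to 7 lower) and 1 to 4 between lung and liver (0 to 1 higher, 1 to 3 lower). Against both tissues the counts were 0 to 1 higher and 0 to 1 lower in lung, 1 to 2 higher and 0 lower in liver, and 0 higher and 2 to 3 lower in brain. Regulators gave 7 to 13 higher and 2 to 11 lower in brain over lung, 10 to 16 and 5 to 12 in brain over liver, and 7 to 11 and 10 to 15 in lung over liver. Without both lung replicate 2 and liver replicate 2, the shallowest library and the one with the lowest TMM factor, an alternative added after seeing the data, 0 Rabs were higher in brain over lung or over liver. Between lung and liver 0 were then called (0 higher, 0 lower), 0 were higher or lower in lung and 0 higher in liver against both tissues, and 6 regulators were lower in brain than in liver and 7 lower in lung than in liver. The causes of these shifts were not tested. Summed Rab levels in single cells were 2940.3 CPM over all barcodes (95% Poisson interval 2924.6 to 2956.1) and 3099.8 over endothelial-like barcodes.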

Other observations

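A few Rabs were called by DESeq2 and not by edgeR against both other tissues. Rab38 and its relative Rab32 serve lysosome-related organelles such as lamellar bodies and melanosomes. Rab38 was at 12.2, 0 and 0.866 CPM in lung replicates 1, 2 and 3 and at 0 counts in brain and liver; the lung epithelium markers of the same libraries summed to 298, 1790 and 611 CPM. Rab32 was at 8.06, 0.623 and 6.42 CPM in liver, 0.314, 1.00 and 0.551 in brain, and 0.354, 0 and 1.01 in lung, and the tissues overlapped. Rab40c, an adaptor of a ubiquitin ligase, was at 22.1, 29.1 and 42.7 CPM in lung, 16.1, 14.0 and 8.90 in brain, and 11.6, 8.29 and 15.4 in liver, and every lung library lay above the others. Its edgeR adjusted p was 0.193 for brain over lung and 0.185 for lung over liver. Rab30, a Golgi GTPase, was at 0.270, 0.0778 and 0.171 CPM in liver, 8.99, 0.167 and 0.459 in brain, and 0.796, 2.67 and 8.81 in lung.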
